A study of Mus musculus with 563 samples.

Results

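Non-cycling hematopoietic stem cells (HSCs) of old mice were compared with those of young mice within the first of 2 deposited count tables. A cell counted as non-cycling when at most 1 of 12 mitosis and proliferation genes (Mki67, Top2a, Ccnb1, Cdk1, Aurkb, Plk1, Nuf2, Cenpf, Hmmr, Tpx2, Bub1 and Kif11) reached 10 counts per 1000000 nuclear gene reads (CPM), so the members were chosen by the measured levels of these genes. Of the 563 cells in the 2 tables, 283 were in the first, 264 of these passed limits on reads, genes and mitochondrial reads, and 202 were non-cycling. They were 52 old LO, 60 old MID, 43 old HI and 47 young cells. All came from the bone marrow of Gfp-Lc3 mice at steady state, and the labels give age as old or young without a number of months. Cells were sorted singly, with the GFP-LC3 signal of each recorded, and LO, MID and HI are label names whose ranking the labels do not spell out. The old level is the mean of the LO, MID and HI levels.

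HSCs sit at the top of blood formation and are mostly quiescent in adult marrow. With age they become more numerous in mouse marrow, give fewer lymphoid and more myeloid and platelet offspring, and carry more RNA of genes such as Selp, Vwf and Clu. Cells in the cycle carry large amounts of replication and mitosis RNA, so cells that read as cycling by the rule above were left out. That rule did not use the replication genes examined below, and genes of the cycle were still read in the cells it kept. Whether the kept cells were at rest was not tested. GFP-LC3 is a reporter of autophagosomes, the vesicles that carry cell contents to the lysosome.

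The summed nuclear gene reads came to 13870895 for LO, 16197831 for MID, 14956288 for HI and 13590562 for young cells. The median cell had 280812, 231995, 348002 and 234420 reads in LO, MID, HI and young cells, and 7714, 7774, 8662 and 7372 genes with a read. Median mitochondrial shares were 2.10%, 2.41%, 2.02% and 2.21% in the same order. Non-cycling cells made up 80% of kept LO cells, 88.2% of MID, 63.2% of HI and 74.6% of young cells. The cell type label was checked with stem cell genes: Kit, the receptor for stem cell factor, was read in 100% of LO, MID and HI cells and in 97.8% of young cells after each cell was thinned to 100000 reads. Procr, an HSC surface marker, was read in 82.6%, 89.5%, 76.2% and 62.2% of LO, MID, HI and young cells. The labels name no animals, so each group is 1 sample, cells are not replicates, and no difference was tested. All differences are log2 of CPM plus 1, old minus young. Intervals cover counting error only, since the reads carry no molecular identifiers.

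Selp, Aldh1a1 and Ebi3, the genes given as markers of this comparison, separated most old from young cells one by one. Selp encodes P-selectin, an adhesion protein of platelets and endothelium, and stood at 238, 189.6 and 162 CPM in LO, MID and HI, against 46.96 CPM in young cells, a log2 difference of 2.04. The median cell had 148, 93.3 and 128.02 CPM of Selp in LO, MID and HI, against 0 in young cells, so the young level came from few cells, up to 532 CPM. Without young cell 57, which held 55.96% of the young reads of Selp, the difference was 3.12. Aldh1a1 (GRCm38 chromosome 19, 20492715 to 20643465, plus strand), an enzyme that oxidizes retinal and other aldehydes, stood at 490.3, 384 and 351 CPM in LO, MID and HI and at 58.5 CPM in young cells, a difference of 2.78, or 3.395 without young cell 22. Ebi3, a subunit shared by the cytokines IL-27 and IL-35, went the other way, with 20.0, 20.9 and 15.7 CPM in LO, MID and HI and 113.2 CPM in young cells, a difference of -2.52.

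After thinning, Selp was read in 89.1% of LO, 89.5% of MID, 92.9% of HI and 13.3% of young cells (6 of 45, exact 95% interval 5.05% to 26.8%). Aldh1a1 was read in 97.8%, 96.5% and 100% of thinned LO, MID and HI cells, and in 24.4% of young cells (12.9% to 39.5%). Ebi3 was read in 15.2%, 12.3% and 11.9% of thinned LO, MID and HI cells, and in 66.7% of young cells (51.05% to 80%). Unthinned shares in old and young cells were 91.6% and 17.02% for Selp, 95.5% and 36.2% for Aldh1a1, and 16.1% and 70.2% for Ebi3. The combination of Selp and Aldh1a1 reads without an Ebi3 read was found in 75.2% of the 145 thinned old cells (67.3% to 81.97%) and in 0 of 45 young cells, which allows a share of up to 6.67%. Ebi3 reads without Selp and Aldh1a1 were found in 0 of 145 old cells, which allows up to 2.07%, and in 21 of 45 young cells (46.7%, 31.7% to 62.1%). The split was not complete: 19 old and 3 young cells had reads of all 3 genes, and 10 young cells had none. The genes were chosen for their difference in these data, so these shares describe the cells and support nothing further.

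**Figure D1:**
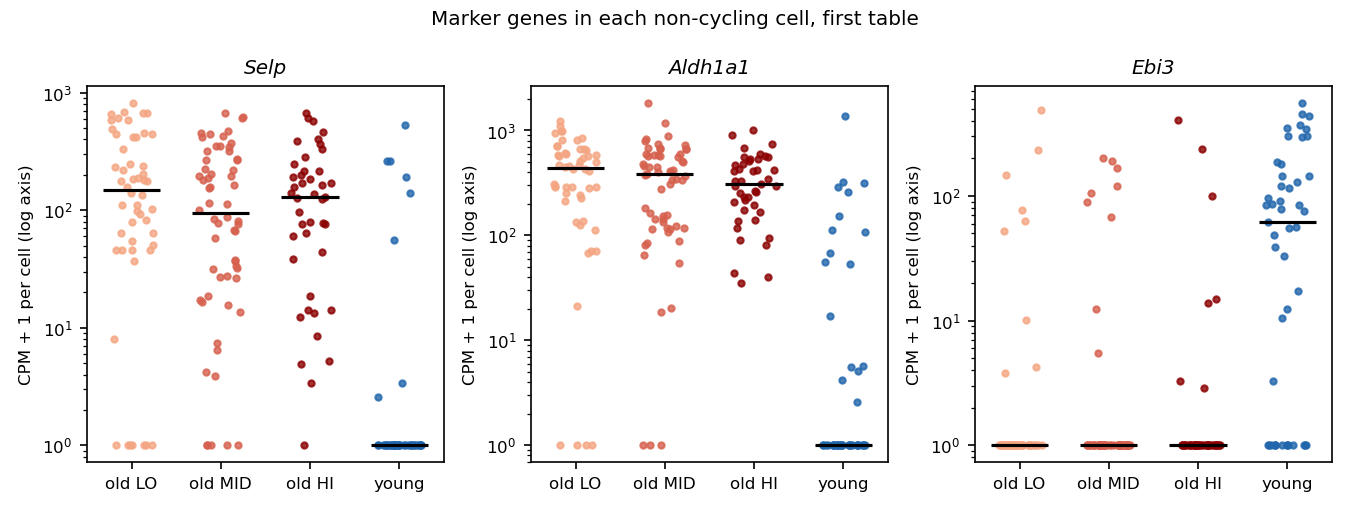
CPM plus 1 of Selp, Aldh1a1 and Ebi3 in each of the 202 non-cycling cells of the first table (log axis, points spread sideways, horizontal bar at the median), with old LO, MID and HI left of young. The young medians of Selp and Aldh1a1 and the old medians of Ebi3 lie at 0 CPM, drawn at 1.

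Across the transcriptome, more genes met a size rule as higher in old cells than as lower, though the rule is not equally strict on both sides. A size rule stands in for a test: a difference of at least 1 in size, the same sign and at least 0.58 (a 1.5-fold change) for each of LO, MID and HI, at least 20 CPM and 20% of cells with a read on the higher side, and no cell with over 20% of that side's reads. Of 9638 genes above the level filter, 352 met it with higher levels in old cells (3.65%) and 82 with lower levels (0.851%). These counts are not measured alike, since the limit on 1 cell runs over 155 old but only 47 young cells. With LO, MID or HI alone as the old side, 61.6%, 63.3% and 62.1% of the genes that met the rule were higher. A difference of at least 1 without the other limits was found for 587 genes upwards (6.09%) and 282 downwards (2.93%). The median difference was 1.40 over the 352 genes and -1.17 over the 82, against 0.01 over all 9638.

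Among the genes that met the rule, the highest differences belonged to genes with almost no reads in young cells. Zg16 (chromosome 7, 127050156 to 127087328, minus strand), a lectin-like secretory granule protein, had 776 reads in LO (95% Poisson interval 722 to 833), 568 in MID (522 to 617), 1070 in HI (1007 to 1136) and 0 in young cells. Its old level of 54.3 CPM is 246-fold the 0.221 CPM that 3 reads would give in the young sum, a limit that covers counting error only. HI cell 55 alone held 274 Zg16 reads, so a single further young cell could exceed that limit. Tmem215, a transmembrane protein, stood at 79.3, 20.0 and 36.3 CPM in LO, MID and HI and at 0.147 CPM in young cells (2 reads), a difference of 5.33. Klrb1c, the natural killer cell receptor known as NK1.1, stood at 105.1, 46.9 and 62.5 CPM in LO, MID and HI and at 0.957 in young cells, a difference of 5.21. For each of these 3 genes the 3 old groups lay far above the young level while differing among themselves by up to several fold.

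Tdrd9, a helicase of the germ line piRNA pathway, was higher in old cells by 5.24, with 92.6, 54.7 and 55.03 CPM in LO, MID and HI and 0.810 in young cells. It was read in 50%, 49.1% and 42.9% of thinned LO, MID and HI cells and in 2.22% of young cells. Matn4, a matrilin of the extracellular matrix, was at 228, 140.99 and 205 CPM in LO, MID and HI and at 4.27 in young cells, a difference of 5.19. Young cell 22 held 67.2% of the young Matn4 reads, and the difference was 6.31 without it. Matn4 (chromosome 2, 164389393 to 164405160, minus strand) overlaps Rbpjl (164403141 to 164415448, plus strand), a relative of the Notch pathway factor RBPJ known from pancreatic acinar cells, which was higher by 4.47. How reads in a shared stretch were assigned is not given in the sources used here, so the 2 values may not be separate. Tdrd9 likewise overlaps Rd3l, and Dnm3, the endocytic GTPase dynamin 3 at 4.36, overlaps Dnm3os.

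The other genes among the 15 highest included Gstm2, a glutathione transferase, at 4.70. Its level was 98.4, 77.7 and 70.6 CPM in LO, MID and HI and 2.21 in young cells, where cell 38 held 80% of the reads. Tm4sf1, a membrane protein of migrating endothelial cells, was at 57.95, 66.6 and 34.4 CPM in LO, MID and HI and at 1.47 in young cells (4.45). Plscr2, of the phospholipid scramblase family, was at 79.3, 88.9 and 85.4 CPM in LO, MID and HI and at 4.05 in young cells (4.08). A single young cell held most of these young reads too: the difference was 5.65 for Tm4sf1 without cell 22, 5.84 for Gstm2 without cell 38 and 5.74 for Plscr2 without cell 35. Ptprk, a receptor tyrosine phosphatase (4.15), Fhdc1, a formin (4.05), and Abca4, the retinoid transporter of photoreceptors (3.93), completed the list together with Mt1 and Osmr. Without the young cell with the most reads the differences were 5.07 for Fhdc1, 4.71 for Abca4 and 5.88 for Klrb1c.

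**Figure D2:**
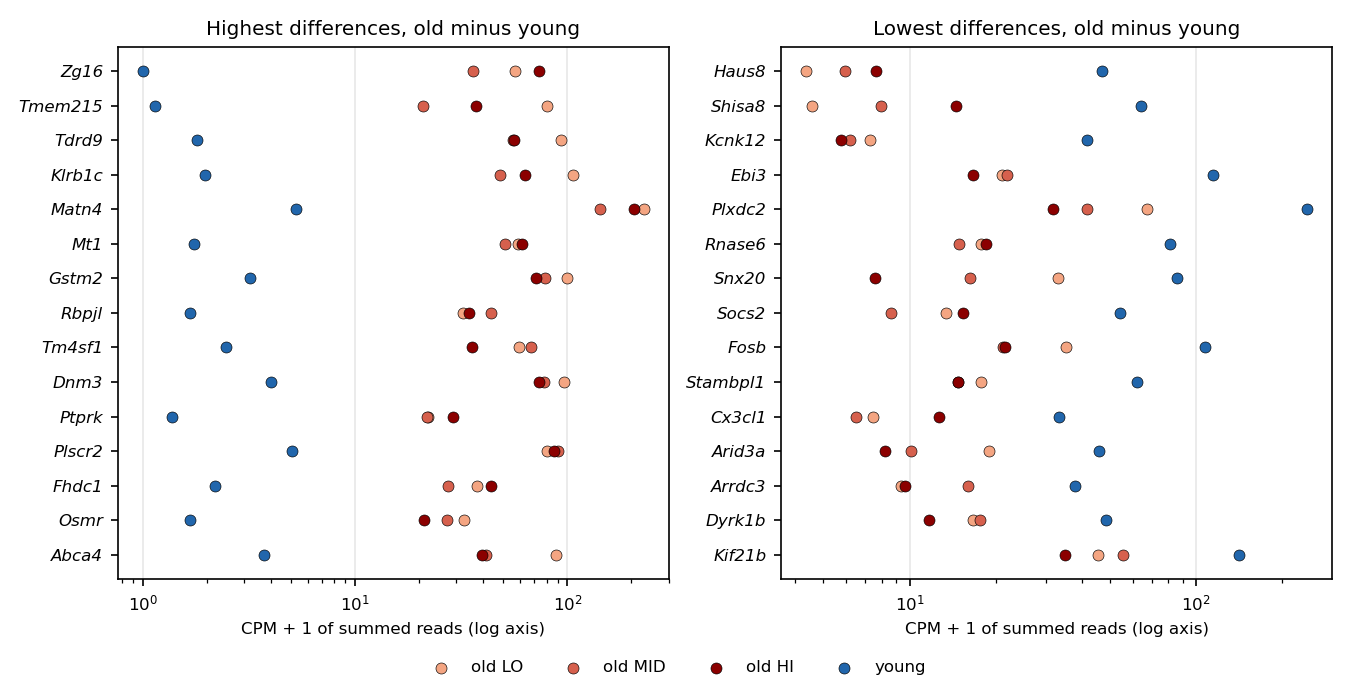
Level (CPM plus 1 of summed reads, log axis) of the 15 genes with the highest difference and the 15 with the lowest among those that met the size rule, 1 point per group. In the left panel every old group lies above 20 CPM and young at or below 5 CPM, and in the right panel young lies above all 3 old groups for every gene.

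The genes lower in old cells had smaller differences than those at the top. Shisa8, of a family of membrane adaptor proteins, was at 3.57, 6.98 and 13.5 CPM in LO, MID and HI and at 63.01 in young cells, a difference of -2.83. Kcnk12, of the potassium leak channel family, was at 6.29, 5.20 and 4.76 CPM in LO, MID and HI and at 40.5 in young cells (-2.69). Plxdc2, a plexin domain membrane protein, was at 66.6, 40.6 and 30.7 CPM in LO, MID and HI and at 242.5 in young cells (-2.37). Plxdc2 was read in 56.5%, 42.1% and 42.9% of thinned LO, MID and HI cells and in 86.7% of young cells. Rnase6, a secreted antimicrobial ribonuclease, was read in 8.70%, 14.04% and 11.9% of thinned LO, MID and HI cells, and in 44.4% of young cells, with a difference of -2.25. Snx20, a sorting nexin of blood cells, differed by -2.18, Cx3cl1, the chemokine fractalkine, by -1.91, and Kif21b, a kinesin motor, by -1.64.

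Some of the lowest values were smaller in size or of opposite sign in the second table. Haus8, a subunit of the augmin complex of the spindle, had the lowest difference among the genes that met the rule, -2.97, with 3.36, 4.96 and 6.67 CPM in LO, MID and HI and 45.9 in young cells, but -0.63 in the second table. It overlaps Myo9b. Stambpl1, a deubiquitinase, was at -1.98 in the first table and 0.71 in the second, and Fosb, a member of the AP-1 family of early response factors, at -2.05 and -0.17. Arid3a, a DNA-binding protein of B cells, was at -1.88 and -0.94, Arrdc3, an arrestin-domain protein, at -1.69 and -1.18, and Dyrk1b, a kinase linked to quiescence, at -1.66 and -0.95.

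Mt1 and Mt2 encode metallothioneins, small cysteine-rich proteins that bind zinc and copper, and lie next to each other on chromosome 8. Mt1 (94179082 to 94180327, plus strand) was at 57.6, 49.997 and 59.9 CPM in LO, MID and HI and at 0.736 CPM in young cells (10 reads), a difference of 5.03. It was read in 65.2%, 66.7% and 66.7% of thinned LO, MID and HI cells and in 2.22% of young cells, so the 3 old groups were alike in level and share. Mt2 (94172664 to 94173568, plus strand) had 193, 219 and 151 reads in LO, MID and HI and 0 reads in young cells. At 13.8, 13.4 and 10.3 CPM in LO, MID and HI it stayed under the 20 CPM of the size rule. The metal response elements to which the zinc sensor MTF1 binds have the core TGCACNC or TGCGCNC, and the promoters of both genes, from RefSeq (GRCm38.p6, 250 bases before to 50 after the start), are shown because these neighbours moved together. Capitals mark the core on either strand.
Mt1 promoter, chr8:94178839-94179138, plus strand: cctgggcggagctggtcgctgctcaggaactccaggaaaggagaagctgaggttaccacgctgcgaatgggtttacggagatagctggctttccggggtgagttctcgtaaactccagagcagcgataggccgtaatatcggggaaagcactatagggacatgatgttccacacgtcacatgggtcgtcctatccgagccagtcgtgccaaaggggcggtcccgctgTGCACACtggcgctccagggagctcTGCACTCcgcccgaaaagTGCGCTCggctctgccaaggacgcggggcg
Mt2 promoter, chr8:94172368-94172667, plus strand: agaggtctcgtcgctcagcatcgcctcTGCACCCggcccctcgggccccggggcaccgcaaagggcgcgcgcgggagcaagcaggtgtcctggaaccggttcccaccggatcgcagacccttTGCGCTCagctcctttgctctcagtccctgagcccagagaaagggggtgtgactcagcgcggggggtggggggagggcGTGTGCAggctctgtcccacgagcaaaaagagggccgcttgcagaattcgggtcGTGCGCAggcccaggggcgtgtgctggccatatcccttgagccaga
The Mt1 window holds 3 matches, a number reached by 1.998% of 27025 promoters of that length. The Mt2 window holds 4 matches, a number reached by 0.503%, while 25.6% hold at least 1. Mtf1 itself was at 41.3, 24.9 and 52.1 CPM in LO, MID and HI and at 49.9 in young cells, a difference of -0.33. Of 12 metallothionein and antioxidant genes above the level filter, Mt1 alone met the rule as higher (3.65% of all genes did), and the list's median was 0.13. Slc30a1, the zinc exporter ZnT1, was at 38.9, 31.6 and 14.2 CPM in LO, MID and HI and at 8.91 in young cells (1.56, but -0.53 in the second table), and Cat, catalase, at 87.4, 78.2 and 83.1 CPM against 157.7 in young cells (-0.92).

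Among genes of the class II major histocompatibility complex, which present peptides to helper T cells, the chains of the presenting proteins and their escort were higher in old cells. H2-Eb1 was at 155, 153 and 169 CPM in LO, MID and HI and at 19.4 in young cells, a difference of 2.97 (3.59 without young cell 66). H2-Ab1 was at 331, 355 and 491 CPM in LO, MID and HI and at 100.3 in young cells (1.96), and Cd74, the invariant chain that escorts class II proteins, at 601, 1127, 868 and 228 CPM in LO, MID, HI and young cells (1.92). H2-Eb1 was read in 52.2%, 59.6% and 47.6% of thinned LO, MID and HI cells and in 11.1% of young cells, and Cd74 in 80.4%, 89.5%, 83.3% and 46.7%. Of 8 class II genes and helpers above the filter, 4 met the size rule as higher (H2-Eb1, H2-Ab1, Cd74 and H2-Aa at 1.37) and none as lower, against 3.65% and 0.851% of all genes tested. Their median was 1.19 in the first table and 2.07 in the second, against 0.01 over all genes in each. H2-Oa (0.52) and H2-Ob (-0.02), which form the modulator of peptide loading known as H2-O, and H2-DMa (0.40), a chain of the loading factor itself, stayed under the rule. H2-DMb1, a partner chain of H2-DMa, was at 62.6, 84.9 and 109.9 CPM in LO, MID and HI and at 42.3 in young cells. Its difference was 1.01, and 1.55 in the second table, but it did not meet the rule in the first. Class II promoters carry a CCAAT box, ATTGG on the other strand, next to the site of the RFX factors, and the windows of H2-Aa and H2-Eb1 are shown with it in capitals.
H2-Aa promoter, chr17:34287774-34288073, minus strand: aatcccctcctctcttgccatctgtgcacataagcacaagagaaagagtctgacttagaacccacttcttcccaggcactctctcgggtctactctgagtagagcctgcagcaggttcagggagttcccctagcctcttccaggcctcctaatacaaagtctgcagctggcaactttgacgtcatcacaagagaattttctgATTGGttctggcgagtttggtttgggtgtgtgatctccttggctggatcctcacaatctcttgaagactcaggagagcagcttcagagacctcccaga
H2-Eb1 promoter, chr17:34305617-34305916, plus strand: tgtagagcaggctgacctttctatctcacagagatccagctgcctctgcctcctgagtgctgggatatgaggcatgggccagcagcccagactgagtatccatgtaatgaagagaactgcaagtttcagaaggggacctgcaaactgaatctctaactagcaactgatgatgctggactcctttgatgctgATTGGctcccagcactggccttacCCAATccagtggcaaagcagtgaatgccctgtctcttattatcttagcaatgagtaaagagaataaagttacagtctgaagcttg
The motif ATTGG, searched on both strands, had 1 match in the H2-Aa window, as in 37.9% of promoters, and 2 in the H2-Eb1 window, as in 12.2%, so matches are common.

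The class II genes are also dendritic cell markers, so the other markers of that cell type were read beside them. Of 10 dendritic markers 5 were above the filter, with Clec9a, a receptor for dead cells, at 2.50 (3.72 without young cell 28), H2-Ab1, Cd74, Bst2 at 0.32 and Flt3 at -0.56. The remaining defining markers Itgax, Siglech, Zbtb46, Xcr1 and Batf3 stayed under it, with differences from -0.25 to 0.05. Summed over the 10 markers, the level was 1059.6, 1613 and 1466 CPM in LO, MID and HI and 422 CPM in young cells, most of it Cd74 and H2-Ab1. Among T and natural killer cell markers Klrb1c and Nkg7 were above the filter. Nkg7, a granule membrane protein, stood at -0.34, but at 1.26 without young cell 60 and at 2.06 in the second table. Cd3d, Cd3e, Cd3g and Ncr1, under the filter, lay between 0.00 and 0.03. A search for cells of other blood or stromal types did not count Flt3, Cd74, H2-Ab1, Vwf, Pecam1, Klrb1c and Bst2. At least 3 remaining markers of another cell type reached 10 CPM in 7 LO, 7 MID, 10 HI and 5 young cells. Without these cells 359 genes were higher and 84 lower, and these held 254 of the 352 and 53 of the 82 genes called with them.

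A list of 31 genes known from earlier work as more abundant in aged HSCs was higher in these old non-cycling cells. All 31 differed upwards, where 51.3% of all genes did, and 30 by at least 0.58, where 14.4% did, and 24 passed the size rule, which 3.65% of all genes did. The median of the list was 2.04, with 2.30 for LO, 1.83 for MID and 1.66 for HI against young, and 18 of the 31 genes were highest in LO. The list was put together with earlier results of these data known, so its count is not independent evidence. Clu, the chaperone clusterin, was at 458, 322 and 355 CPM in LO, MID and HI and at 90.8 in young cells, a difference of 2.05, or 2.64 without young cell 50. Vwf, the platelet adhesion factor von Willebrand, was at 430.5, 389 and 396 CPM in LO, MID and HI and at 147.5 in young cells (1.45). The smallest differences were 0.10 for Exoc6b, a subunit of the exocyst, 0.77 for the tetraspanin Cd9 and 0.82 for Itga2b, the platelet integrin CD41.

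Counted cell by cell after thinning, a cell of the LO group had a read of 10 to 28 of the 31 genes (median 21), of the MID group 16 to 29 (median 19), of the HI group 14 to 29 (median 19.5) and of the young group 3 to 21 (median 9). At least 15 of the genes were read in 140 of 145 old cells and in 4 of 45 young cells. Young cells 22 and 50 had the highest numbers among young cells, 21 and 18. In the second table old cells had 11 to 28 (median 21) and young cells 3 to 16 (median 10), and at least 15 genes were read in 130 old and 3 young cells. The distributions of old and young cells overlapped in both tables: 19 of 45 young cells of the first and 20 of 46 of the second had at least as many of the genes as the lowest old cell. The old median, 20 in the first table and 21 in the second, was reached by 1 and 0 young cells.

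**Figure D3:**
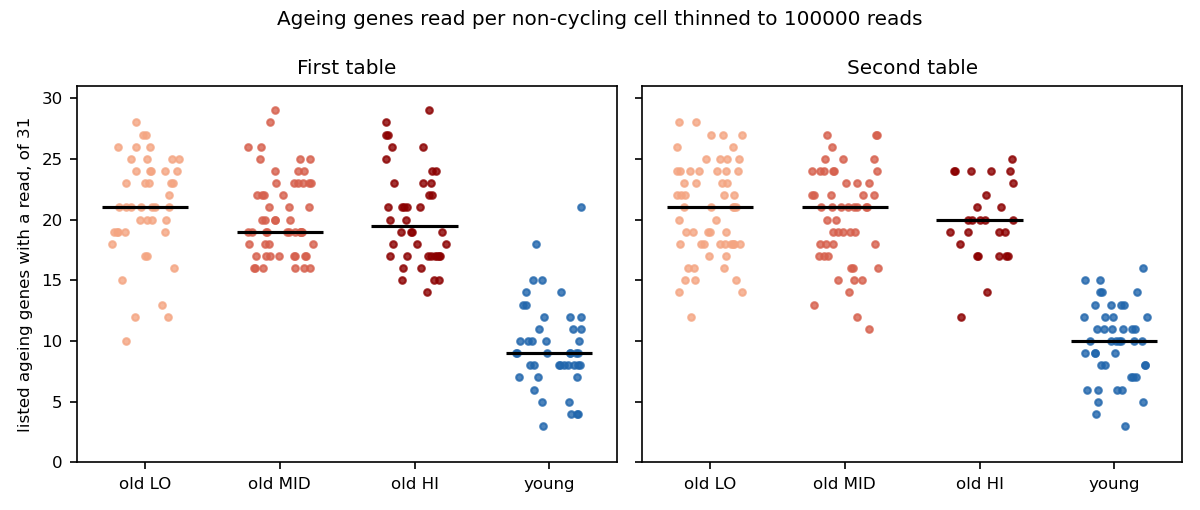
Number of the 31 listed ageing genes with a read in each non-cycling cell thinned to 100000 reads, by group, in the first table (left) and the second (right), with points spread sideways and a bar at the median. Medians of the old groups lie between 19 and 21, those of young cells at 9 and 10.

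Platelet and megakaryocyte genes were mixed: of 16 above the filter 4 met the rule as higher (3.65% of all genes tested did) and none as lower (0.851%), and the median was 0.35. Itgb3, the beta chain of the platelet fibrinogen receptor, was at 492, 357 and 322 CPM in LO, MID and HI and at 51.8 in young cells, a difference of 2.89, and was read in 97.8%, 98.2%, 92.9% and 40% of thinned LO, MID, HI and young cells. Selp and Vwf were the second and the third of the 4. Clec1b, the platelet receptor CLEC-2, was the fourth, with 26.5, 18.2 and 28.2 CPM in LO, MID and HI and 0.662 in young cells, a difference of 3.93 in the first table (4.56 without young cell 21) but 0.19 in the second. Pf4, a platelet granule chemokine, stood at -0.35 (1.34 in the second table) and the megakaryocyte factor Nfe2 at -0.05 (0.16 in the second table). In the second table the median of the platelet and megakaryocyte genes was 0.68. Itgb3, Selp, Vwf, Itga2b and Cd9 are also on the ageing list.

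Of 17 adhesion and integrin genes 5 met the rule as higher, against 3.65% of all genes tested, with a median of 0.62 in the first table and 0.14 in the second. They were Itgb3, Selp, Itgb2, Jam2 at 1.41 and Alcam at 1.02, the last a ligand of CD6. Itgb2, the beta chain of the leukocyte integrins, was at 52.95, 40.4 and 48.2 CPM in LO, MID and HI and at 16.5 in young cells (1.46), but at -0.18 in the second table. At the low end were Jam3 (-0.98), a junction protein that binds Jam2, Icam1 (-0.72), a ligand of leukocyte integrins, and Pecam1 (-0.56).

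Receptors for cytokines, and their inhibitors, differed upwards and downwards. Osmr, the receptor chain for oncostatin M that pairs with Il6st, was at 31.6, 26.1 and 20.2 CPM in LO, MID and HI and at 0.662 in young cells, a difference of 4.02. Socs3, an inhibitor induced by and acting on such receptors, was at 86.8, 83.8 and 75.4 CPM in LO, MID and HI and at 11.7 in young cells (2.71), and was read in 43.5%, 45.6%, 45.2% and 8.89% of thinned LO, MID, HI and young cells. The kinases Pim1 and Pim2, known targets of STAT factors, were higher by 1.49 and 1.52. In the second table Pim1 stood at -0.17 and Pim2 at 0.84, and without young cell 50 the first-table difference of Pim2 was 2.52. That of Socs3 was 3.36 without young cell 20. Socs2, an inhibitor of growth hormone signals, was lower, with 12.4, 7.59 and 14.4 CPM in LO, MID and HI and 53.4 in young cells (-2.12). Csf2rb, the beta chain shared by the receptors for IL-3, IL-5 and GM-CSF, was at 16.6, 5.57 and 7.89 CPM in LO, MID and HI and at 62.1 in young cells (-2.52). It did not meet the rule because young cell 60 held 37.7% of the young reads, and stood at -1.92 without that cell. Of the 22 listed genes above the filter 4 met the rule as higher and 2 as lower (Socs2 and Ebi3), against 3.65% and 0.851% of all genes tested, and the median was 0.03. Il27ra, a receptor for the IL-27 that contains Ebi3, stood at 0.41.

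The other retinoid genes had smaller differences than Aldh1a1. Rdh10, which makes retinal from retinol, was at 47.5, 49.997 and 39.6 CPM in LO, MID and HI and at 12.9 in young cells (1.75), but at 0.08 in the second table. Cyp26b1, which breaks down retinoic acid, stood at 0.95, and at 1.91 without young cell 45. Of 11 genes of aldehyde and retinoid handling 2 met the rule as higher, Aldh1a1 and Rdh10, against 3.65% of all genes, and the median was 0.10.

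Genes of HSC identity kept levels near those of young cells. Their median was 0.23 over 27 genes, of which 2 met the rule as higher and 1 as lower, against 3.65% and 0.851% of all genes. Slamf1, the HSC surface marker CD150, was at 149.8, 114.99 and 169 CPM in LO, MID and HI and at 61.7 in young cells (1.21), and Ly6e, a relative of Sca-1, differed by 1.22. Tek, the angiopoietin receptor TIE2, was at 29.8, 35.4 and 36.5 CPM in LO, MID and HI and at 72.8 in young cells (-1.08), and was under 1 in size, at -0.89, without young cell 6. Kit (0.15), Procr (0.29), Hlf (-0.27) and Hoxa9 (-0.36) differed by less than 0.4.

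None of the multipotent progenitor markers met the rule, against 3.65% of all genes as higher and 0.851% as lower. The 4 of 9 above the filter had a median of -0.81, and of -1.23 in the second table. Cd34 was at 115.98, 116.9 and 101.2 CPM in LO, MID and HI and at 234 in young cells, a difference of -1.06. It was read in 47.8%, 57.9%, 57.1% and 64.4% of thinned LO, MID, HI and young cells, and 27.2% of the young reads came from cell 60, without which the difference was -0.68. Plac8 stood at -1.33, Flt3, the receptor of lymphoid-primed progenitors, at -0.56 and the costimulatory receptor Cd27 at 0.36. The share of young reads held by 1 cell was 33.2% for Flt3 and 27.8% for Plac8.

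Most early response genes did not meet the rule. Dusp1, a phosphatase that switches off MAP kinases, was at 95.8, 69.2 and 93.1 CPM in LO, MID and HI and at 197 in young cells (-1.19), and with Fosb it met the rule as lower, 2 of 15 genes, against 0.851% of all genes. Fosb was read in 32.6%, 29.8%, 19.05% and 62.2% of thinned LO, MID, HI and young cells, and Fos in 28.3%, 28.1%, 21.4% and 53.3%, with a difference of -0.88. In the second table Fos stood at 0.06. Nr4a2, an orphan nuclear receptor, went the other way at 1.66.

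None of 19 genes of the interferon response met the rule, against 3.65% of all genes as higher and 0.851% as lower. Their median was 0.04 in the first table and -0.42 in the second. By at least 0.58, 6 of the 19 were lower and 1 higher, where 10.3% and 14.4% of all genes were. The lowest were Oas2, a sensor of double-stranded RNA, at 1.79, 15.4 and 7.01 CPM in LO, MID and HI and at 45.2 in young cells (-2.35), Ifit1 at -1.38 and Irf7, which amplifies the response, at -1.04. Reads of these 3 genes were concentrated, with 25.4%, 27.3% and 20.1% of the young reads in 1 cell. Among 14 NF-kB and inflammation genes with a median of 0.29 only Il1r1, the receptor for interleukin 1, met the rule, as higher (3.65% of all genes did). It was at 25.7, 17.7 and 21.2 CPM in LO, MID and HI and at 3.24 in young cells (2.41, 3.05 without young cell 11, and 1.34 in the second table). Nfkbia, the inhibitor induced by NF-kB, was at 309, 361 and 283 CPM in LO, MID and HI and at 159 in young cells (0.996).

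Genes of autophagy were near their young level. The median was 0.04 over 34 genes of the machinery and its receptors. None met the rule, against 3.65% of all genes as higher and 0.851% as lower. By at least 0.58, 2 were higher and 2 lower, where 14.4% and 10.3% of all genes were. Map1lc3b, which encodes the LC3B protein itself, was at 301, 309.5 and 313.5 CPM in LO, MID and HI and at 316 in young cells, a difference of -0.04. The largest values were 0.80 for Tfeb, the master factor of lysosome genes, at 22.6, 4.34, 23.1 and 9.13 CPM in LO, MID, HI and young cells, and 0.76 for the kinase Ulk2. The lowest were -0.68 for the protease Atg4b and -0.64 for Atg10, the last at -0.04 without young cell 59. Lysosome genes had a median of 0.05 over 24 genes, from Npc1, the cholesterol exporter, at -0.62 to Gaa, acid alpha-glucosidase, at 0.77.

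Metabolic and ribosomal genes were as close. Medians were 0.18 for 19 genes of glucose uptake and glycolysis, 0.01 for 28 nuclear genes of oxidative phosphorylation and 0.06 for 27 cytosolic ribosomal protein genes. Hk2, the hexokinase that starts glycolysis, was at 41.1, 54.2 and 59.9 CPM in LO, MID and HI and at 18.03 in young cells (1.47). Ldha, lactate dehydrogenase, was at 644.5, 678 and 749 CPM in LO, MID and HI and at 402 in young cells (0.78). Pdk1, a kinase that inhibits pyruvate dehydrogenase, stood at -0.90. Rpl10 met the rule at 1.63, and all other ribosomal protein genes of the list differed by less than 0.58.

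**Figure D4:**
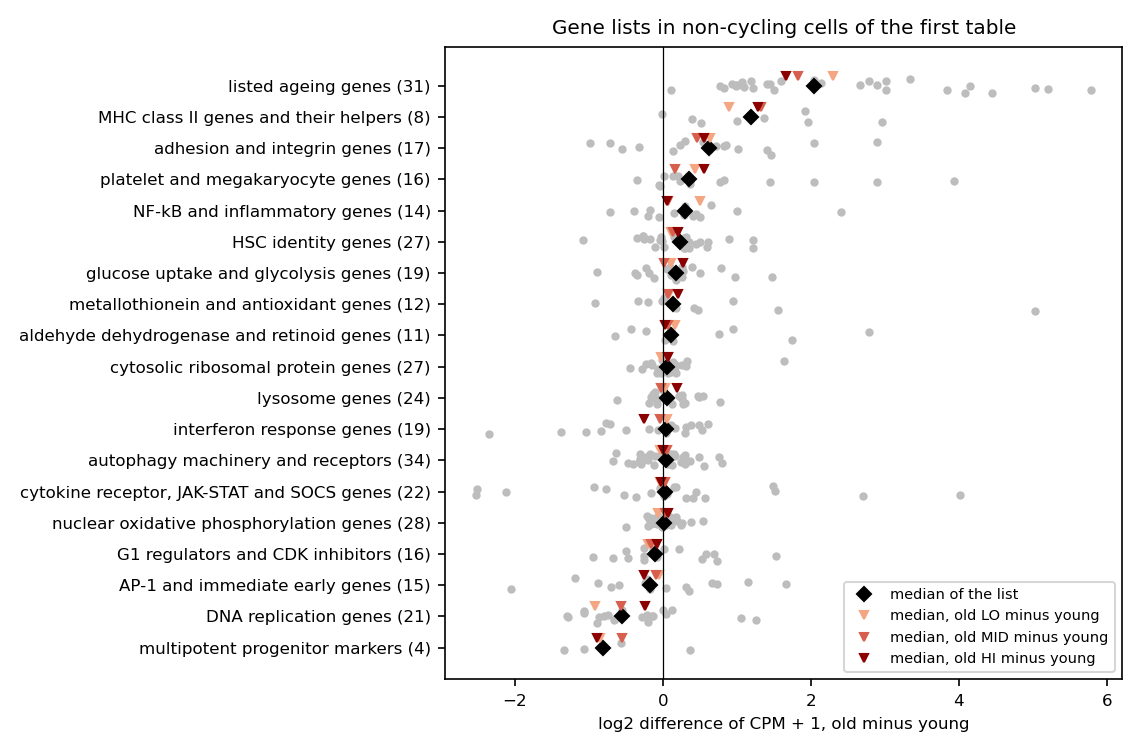
Log2 difference of CPM plus 1, old minus young, for the genes of each list above the level filter (grey points, number in brackets), with the list's median (diamond) and the medians of LO, MID and HI minus young (triangles). Of the lists drawn, which leave out markers of other cell types, sex-linked genes, the 12 cycle genes and G2 and M phase genes, the listed ageing genes lie highest at 2.04 and the progenitor markers lowest at -0.81.

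Genes of the cycle were still read in cells within the limit on cycling. The 12 genes that defined non-cycling cells summed to 23.6, 23.8 and 43.9 CPM in LO, MID and HI and to 85.5 CPM in young cells, which describes what the limit left and is no result. Of the 202 cells 120 had none of the 12 at 10 CPM and 82 had 1, with a median of 51.6 CPM over the 12 genes. Just outside the limit, 21 cells had 2 of them, with a median of 194 CPM. Replication genes, which the rule did not use, had a median of -0.55 over 21 genes (-0.92 for LO, -0.57 for MID, -0.24 for HI), with 10 of the 21 lower by at least 0.58, where 10.3% of all genes were, but 0.08 in the second table. Mcm5, a subunit of the replicative helicase, was at 37.6, 43.3 and 119.7 CPM in LO, MID and HI and at 141.3 in young cells (-1.07). Young cell 38 held 50.3% of the young Mcm5 reads, and the difference was -0.11 without it. Cdt1, which loads that helicase, met the rule at 1.06 but stood at -0.20 in the second table. Among regulators of the cycle Cdkn2c, the CDK4 and CDK6 inhibitor p18, was at 20.5, 24.5 and 16.3 CPM in LO, MID and HI and at 6.40 in young cells (1.53, and 3.57 in the second table), Cdk6 stood at 0.73, and the G1 cyclin gene Ccnd2 at -0.50.

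The first table sets cells with Y-linked reads against cells with Y-linked reads. At least 20 reads of Ddx3y, Eif2s3y, Kdm5d and Uty together were found in 48 of 52 LO, 54 of 60 MID, 39 of 43 HI and 44 of 47 young cells, and Xist, which coats the inactive X chromosome, reached 20 reads in 0, 0, 4 and 0. In the second table all 47 young non-cycling cells had Xist reads and 0 had Y-linked reads at that level, while most old cells had Y-linked reads. There sex and age cannot be told apart. With cells with Y-linked reads alone, 376 genes were higher and 76 lower in the first table, 330 and 64 of them among the 352 and the 82.

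Of the 352 genes higher in the first table, 347 also passed the filter in the second, and 251 of these were higher there too (72.3%), against 50.6% of all genes above the filter in both tables. There, 174 differed by at least 0.58 (50.1%, against 14.8%) and 36.02% by at least 1 (against 6%). The size rule was met in both tables by 100 of the 352, which are 28.4%. The second table on its own gave 339 genes as higher (3.55%) and 1.45% of genes as lower. Of the 82 genes lower in the first table, 80 passed the filter in the second and 63 were lower there (78.8%, against 49.4%), 25 by at least 1 (31.3%, against 3.4%), and 14 met the rule (17.1%). Median differences of the 2 sets in the second table were 0.58 and -0.65, smaller than the 1.40 and -1.17 by which they had been picked. Opposite differences of at least 1 were found for 9 of the genes higher in the first table and for 1 of those lower.

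**Figure D5:**
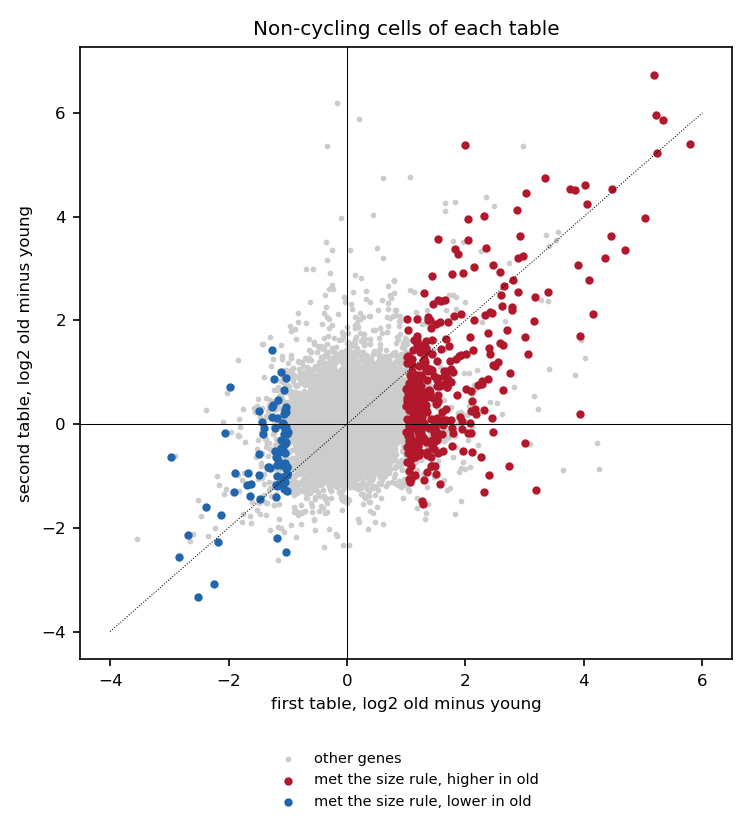
Log2 difference, old minus young, of non-cycling cells in the first table (horizontal) and in the second (vertical) for each gene above the filter of the first table, without Xist; genes that met the size rule in the first table are coloured. Coloured genes beyond 4 in the first table lie above 2 in the second, while many of those between 1 and 2 spread around 0.

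When all 264 kept cells of the first table were used, cycling ones included, 242 genes were higher (2.48%) and 69 lower (0.707%), and 198 and 35 of these were among the 352 and the 82. The median difference of the 352 genes was 1.17 over all kept cells and that of the 82 genes -0.99.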

How the data were processed

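Libraries of single sorted bone marrow cells, 1 per sample, were made with a variant of Smart-seq2, per the labels. The values deposited by the authors are raw read counts for each gene. The submitters' processing notes name, without roles, mm10 as build and the tools DESeq2, Subread, featureCounts 2.0.0 and STAR 2.7.3a. In the first table, 22.3% of 372563514 reads lay in genes. The rest stayed out of library sizes, with 34.8% in no feature, 38.7% not aligned, 3.80% ambiguous and 0.401% spike-ins.

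Cells were kept from 50000 nuclear gene reads and 1000 genes and up to 20% mitochondrial reads, which left out 19 of 283. Doublets were not called because each well received 1 sorted cell. Counts were summed per group, scaled with TMM factors (edgeR 4.0.16, R 4.3.3) and compared as log2 of CPM plus a pseudocount of 1. Genes needed a mean of 10 CPM and a read in 10% of cells. The size rule left out pseudogenes and gene models without a name. GENCODE M21 (GRCm38) gave names and positions for 45229 of 46078 identifiers. The rest was done in Python 3.11.15 (SciPy 1.17.1, pandas 2.3.3, NumPy 2.4.6 and, for plots, matplotlib 3.10.9) and was tested on simulated data. Intervals at 95% are exact, Poisson for read sums and Clopper-Pearson for shares, and a share of 0 has the limit of 3 counts. Thinning left out 12 cells with under 100000 reads.

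The cells, gene lists and rules were chosen with earlier results of these data known. The text names the 15 genes at each end of those meeting the rule, up to 3 at each end of every list, and genes always given, such as Kit, Mt2 and Vwf. Further list members and neighbouring genes were named after their values were seen. Alternatives changed the scaling, pseudocount, filters, cells, table or old group, with effects given in the closing section.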

Additional observations from a re-analysis of the deposited data

Results flagged for a closer look

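Uhrf1 and Mki67 gave opposite differences in the non-cycling cells of the 2 tables. Uhrf1, a reader of methylated DNA used in replication, was lower in old cells of the first table by -1.29 on the log2 scale and higher in the second by 1.12, with LO, MID and HI all on the same side of young in each table. Its level in the first table was 4.57, 9.85 and 28.3 CPM in LO, MID and HI and 36.2 CPM in young cells, and without young cell 38 the difference was -0.44. Mki67, one of the 12 genes that set the limit on cycling, was at -1.05 in the first table and 1.05 in the second. Young cell 15 held 55.2% of its young reads in the first table, and the difference was 0.01 without that cell. What the limit left of Mki67 is a description and supports nothing. Medians in the first and the second table were -0.55 and 0.08 for replication genes, and -1.52 and -1.66 for the 3 G2 and M phase genes outside the 12 that were above the filter. The difference between the tables was not tested, since each group is 1 sample, and the part of single cells in it was not tested.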

How the results depend on the processing

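Of the genes tested, 3.65% were higher (352) and 0.851% lower (82) in old cells. With a pseudocount of 10 CPM these were 1.96% (189) and 0.374% (36), and with a level filter of 50 CPM and 25% of cells 2.49% and 0.574% (29) of the 5056 genes left. With cells in which 0 of the 12 cycle genes reached 10 CPM, 94 old and 26 young, they were 5.82% (559) and 0.427% (41), and the median of all genes was 0.09. Those 559 and 41 genes held only 226 of the 352 and 17 of the 82. The second table gave 1.45% lower genes. With 1 old group alone, the lower genes were 2.03% for LO, 1.86% for MID and 1.96% for HI, since the rule then asks for 1 group only. The remaining alternatives stayed within 1.5 times both counts, such as all kept cells (242 higher, 69 lower) and, chosen after seeing the data, the table without young cells 22 and 50 (383 and 88). The cause of each move was not tested.

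Of 1045 values of the 55 genes that met the rule and fell under the rule for naming, 3 had the opposite sign, all in the second table: Stambpl1 at 0.71, Itgb2 at -0.18 and Cdt1 at -0.20. Pim1, named outside that rule, stood at -0.17 there. The 55 genes include those with the largest differences, so they do not stand for all genes that met the size rule. Of all such genes above the filter in the second table, 72.3% of the higher and 78.8% of the lower kept their sign there. Sizes moved more often than signs: 414 of the 1045 values lay outside the counting interval. Without the cell that moved each gene most, 26.7% of 434 genes moved by over 0.58. That cell was young for 409 of the 434, which limits genes with few young reads. Losing a young cell rich in reads of a gene raises the difference, so higher genes grow and lower genes shrink in size. In this way 0 of the higher but 38 of the lower genes came under 1 in size. These counts cannot compare how firm higher and lower genes are. Losing an old cell was examined only where it moved a gene most. No paired analysis was possible because the numbers in the labels count single cells, with none tied to an animal.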

Other observations

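Several genes that met the size rule lie beside each other. On chromosome 6 Clec1b (3.93), Clec9a (2.50) and Clec1a (2.14), all C-type lectin receptors, follow one another, and the ends of Clec1b (129397297 to 129409335) and Clec9a (129408862 to 129424763) overlap, so their reads may not be separate. On chromosome 17 H2-Ab1 (1.96), H2-Aa (1.37) and H2-Eb1 (2.97) lie within 18044 bases of their neighbours. Plscr1 (1.002) and Plscr2 (4.08) lie 3324 bases apart on chromosome 9, and Nupr1 (3.02), a stress factor, and Sult1a1 (1.59), a sulfotransferase, 42004 bases apart on chromosome 7. Lower in old cells were the neighbours Lst1 (-1.19) and Ltb (-1.01, or -0.84 without young cell 55), the gene of lymphotoxin beta, on chromosome 17, and Gimap6 (-1.47) and Gimap1os (-1.49) on chromosome 6.

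Reads of the reporter were counted as well. The eGFP sequence stood at 442, 775 and 930.4 CPM in LO, MID and HI and at 887 CPM in non-cycling young cells of the first table, and the rat Map1lc3b sequence at 422, 714, 877 and 803 CPM. In the second table eGFP stood at 418, 1053, 989 and 1364 CPM in LO, MID, HI and young cells.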
